A study of Mus musculus with 6 samples.

Results

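The 56 genes described here are the protein coding genes that surround Epha2 on mouse chromosome 4. They were taken as the rows of the count table whose gene start lies from 4.30 Mb before to 4.70 Mb after the start of Epha2 (GRCm38, GENCODE M21) and whose mean level over the 6 libraries was at least 1 CPM (counts per 1000000 counts of the library). Epha2 itself and the 5 Padi genes of the window were left out. The window held 132 protein coding rows of the 25006 rows in the table; after those 6 genes were left out, 56 of the remaining 126 reached the threshold and 70 did not. Just inside the threshold were Rsg1 at 1.03 CPM and Pramef12 at 1.19 CPM, and just outside were Tas1r2 at 0.871 CPM and Sh2d5 at 0.776 CPM. The nearest expressed genes beyond the borders were Zbtb40, which starts at 136.98 Mb, and Zfp992, which starts at 146.449 Mb. Of the 56 genes, 39 start before Epha2 and 17 after it.

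The libraries are total RNA from sheets of corneal epithelium, the layered cell sheet on the front of the eye, with 3 from wild type mice and 3 labelled EphA2 null. The sources used here give neither strain, age and sex of the mice nor how the Epha2 allele was made. No label states that each sample is a separate animal, so the p-values rest on sample-to-sample spread that could be technical only. Each sample title carries a number and a letter, without a word on what they stand for. Samples that share a number differ in the letter. The 4 numbers used form 2 ranges. Each number belongs to only 1 genotype. Within a range, a genotype difference therefore cannot be told apart from a difference between title numbers. Wild type 1 and 2 and EphA2 null 1 have lower title numbers, and the other 3 libraries have higher ones. Wild type 1 and 2 share a number, as do EphA2 null 2 and 3, so they may not be independent samples, although each is counted as a sample in the tests and SDs below.

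As background, EphA2 is a cell surface tyrosine kinase whose ligands, the A-type ephrins, sit on adjacent cells. Genes that lie close to a gene on a chromosome are inherited with it more often than distant genes, so a mouse line and its controls can carry different parental versions of the neighbours as well as of the gene itself. The neighbours of Epha2 are functionally mixed. They include guanine nucleotide exchange factors, which switch on small GTPases that shape the actin cytoskeleton, ubiquitin ligases, mitochondrial enzymes, transcription factors, and genes of the cilium and the lysosome. Ciliogenesis and autophagy, which ends in the lysosome, are the processes the series' title names.

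Total counts ran from 15308013 to 27586942 per library, and the 56 genes took between 0.386% and 0.463% of them. Levels below are in the order of libraries 1, 2 and 3 of each group and, unlike the CPM of the threshold and the marker sums, are scaled with TMM factors, which adjust library size for differences in composition. Epha2 was at 298, 253 and 563 CPM in wild type and, under the EphA2 null label, at 285, 653 and 578 CPM. The Epha2 level therefore did not show the labelled genotype, and every genotype direction below rests on the label alone. All 10 markers of corneal epithelium were expressed, with a summed level of at least 66300 CPM in each library.

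Between the genotypes, no flanking gene was called. Of the 56, 0 had an adjusted p under 0.05 in edgeR's quasi-likelihood test with genotype as the only term, against 1 of 12847 genes (0.00778%) in the whole table. That gene was Padi1, 0.488 Mb from Epha2 and not among the 56, at 2.08 ± 0.42 CPM in wild type and 31.8 ± 4.45 CPM with the EphA2 null label (SD, n = 3 each). At an unadjusted p under 0.05 the count was also 0 of 56, against 1.18% of all genes tested. The smallest p-values belonged to Camk2n1, Arhgef19, Rsg1, Arhgef10l, Zbtb17, Sdhb, Fam131c and Tmco4, each with an adjusted p of 0.9996 in edgeR. DESeq2 and limma voom likewise called 0 of the 56. The median log2 fold change of the labelled null over the wild type group was 0.13 over the 56 and 0.0122 over all genes tested. It was above 0 in 44 of the 56 and in 6816 of all 12847 genes tested. Single genes of the 56 ran from -0.65 for Rsg1 to 0.62 for Camk2n1. Levels did not overlap between the genotypes for 2 of the 56 genes, Rsg1 and Ddost, or 3.57%, near the 3.73% of all genes tested.

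Far more of these genes differed by title number than by genotype, as described further below, and the title numbers are not balanced between the genotypes. A model that holds the title number range as a term was therefore also fitted. In that model 5 of the 56 genes had an unadjusted p under 0.05 for genotype in edgeR, or 8.93%, against 3.78% of all 13147 genes tested, and 0 of the 56 had an adjusted p under 0.05, against 0.00761%. The 5 were Sdhb, Necap2, Arhgef19, Zbtb17 and Camk2n1. With the term the median of the 56 turned from 0.13 to -0.03, with 25 above 0 and 31 below. Over all genes tested, 6759 were above 0 and 6388 below. The sign changed with the term in 23 of the 56 genes. In DESeq2 with the same term 5 of the 56 had an unadjusted p under 0.05, against 2.94% of all genes, and none passed after adjustment. The first 4 of those genes lie within 0.340 Mb of Epha2, on both sides of it, while Camk2n1 starts 2.85 Mb away.

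Arhgef19 is the nearest flanking gene. It starts 0.0617 Mb before Epha2 (ENSMUSG00000028919, chromosome 4, 141239499 to 141257564 in GRCm38, plus strand) and encodes a guanine nucleotide exchange factor. The 3 wild type libraries had 41.2, 39.6 and 66.6 CPM, and those with the EphA2 null label 27.5, 28.2 and 44.0 CPM. Within the lower title numbers the library labelled EphA2 null lay below both wild type libraries, and within the higher ones both lay below the wild type library, although the groups overlap when the ranges are pooled. The log2 fold change was -0.56 ± 0.28 (SE) with genotype alone and -0.71 ± 0.17 (SE) with the title number term, where the adjusted p was 0.867 in edgeR and 0.0827 in DESeq2. Within the title ranges it was -0.55 in the lower and -0.88 in the higher. With each library left out in turn it stayed between -0.865 and -0.558 in the model with the term, and over all alternatives fitted with the term the adjusted p ran from 0.00173 to 1.

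Zbtb17, also known as Miz1, encodes a zinc finger transcription factor that partners with Myc. It starts 0.143 Mb after Epha2 (ENSMUSG00000006215, chromosome 4, 141444654 to 141467930, plus strand). The 3 wild type libraries had 43.2, 36.5 and 46.8 CPM, and those with the EphA2 null label 23.2, 34.9 and 38.9 CPM. Here too each library labelled EphA2 null lay below the wild type libraries of its own title range, with wild type 2 inside the pooled span of the other group. The log2 fold change was -0.38 ± 0.22 (SE) with genotype alone and -0.55 ± 0.14 (SE) with the term (adjusted p = 0.939 in edgeR, 0.159 in DESeq2), and within title ranges -0.78 (lower) and -0.34 (higher). Without the library labelled EphA2 null 1 the value with the term was -0.33, and the other 5 leave-one-out values lay between -0.78 and -0.47. When the filter on low counts was dropped, edgeR with the term called Arhgef19 (adjusted p = 0.00173) and Zbtb17 (adjusted p = 0.0330) as lower. These are 2 of the 56 genes, against 68 of 18389 (0.37%) in the whole table. The log2 fold changes hardly moved, to -0.72 for Arhgef19 and -0.56 for Zbtb17. The calls thus came with smaller p-values, in a fit that also takes in rows with very few counts. Why the p-values fell was not tested. Over all alternatives fitted with the term the adjusted p of Zbtb17 ran from 0.0330 to 1.

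The sequences just upstream of these genes and of Epha2 are shown because Arhgef19 and Zbtb17 are neighbours on either side of Epha2 with lower values in the same libraries, while Sdhb, described next, lies close by with values in the other direction. Each is the 250 bases before the RefSeq transcription start (GRCm38.p6, plus strand), written 5' to 3', with matches to the GC box, GGGCGG on either strand, in capitals. The RefSeq start of Arhgef19 lies 5589 bases inside the GENCODE gene.
Arhgef19: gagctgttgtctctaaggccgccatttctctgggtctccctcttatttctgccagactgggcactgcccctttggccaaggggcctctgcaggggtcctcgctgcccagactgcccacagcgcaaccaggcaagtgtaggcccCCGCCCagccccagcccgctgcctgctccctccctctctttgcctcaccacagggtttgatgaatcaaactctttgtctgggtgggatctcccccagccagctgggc
Epha2: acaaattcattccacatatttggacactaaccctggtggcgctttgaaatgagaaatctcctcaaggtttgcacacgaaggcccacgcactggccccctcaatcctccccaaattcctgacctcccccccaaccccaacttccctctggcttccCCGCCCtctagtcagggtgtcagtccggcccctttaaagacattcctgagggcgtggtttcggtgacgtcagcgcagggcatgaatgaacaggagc
Zbtb17: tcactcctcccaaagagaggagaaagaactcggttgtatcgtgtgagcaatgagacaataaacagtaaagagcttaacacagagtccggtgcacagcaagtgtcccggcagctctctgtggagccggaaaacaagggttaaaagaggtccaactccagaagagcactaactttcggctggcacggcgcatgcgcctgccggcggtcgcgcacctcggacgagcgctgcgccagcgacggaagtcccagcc
Sdhb: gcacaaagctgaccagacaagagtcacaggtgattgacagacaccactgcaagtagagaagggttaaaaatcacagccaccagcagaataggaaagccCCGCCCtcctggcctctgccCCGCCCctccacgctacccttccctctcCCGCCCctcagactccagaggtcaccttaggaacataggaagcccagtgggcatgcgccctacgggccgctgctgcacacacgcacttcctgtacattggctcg
They span chr4:141244838-141245087, chr4:141300971-141301220, chr4:141444423-141444672 and chr4:140961021-140961270, in that order. The Arhgef19 and Epha2 windows hold 1 GC box each, the Sdhb window 3 and the Zbtb17 window 0, while Zbtb17 has 19 CpG dinucleotides against 5 for Arhgef19 and 9 each for Epha2 and Sdhb. RefSeq promoters were matched for 52 of the 56 genes. Of these, 30 (57.7%) held a GC box in the 250 bases, 11 (21.2%) a CCAAT and 3 (5.77%) a TATAAA on either strand, against 32.7%, 33.8% and 12.4% of all 32851 promoters of the table. The median CpG count was 17 for the 52 and 6 over the table, which also holds promoters of genes that are not expressed here.

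Necap2 and Rsg1 are further neighbours on the side before Epha2 with lower values in the libraries labelled EphA2 null. Necap2 encodes a protein that binds clathrin adaptors in endocytosis and receptor recycling and starts 0.235 Mb from Epha2 (chromosome 4, 141066512 to 141078357, minus strand). The 3 wild type libraries had 134, 127 and 166 CPM, and those with the EphA2 null label 94.8, 135 and 130 CPM. The value within each title range is again on the lower side, with log2 fold changes of -0.46 in the lower and -0.32 in the higher range. With the term it was -0.39 ± 0.09 (SE; adjusted p = 0.851 in edgeR and 0.0781 in DESeq2), and -0.46 to -0.31 with each library left out (adjusted p from 0.0781 to 1 over the alternatives). Rsg1 encodes a GTPase-like protein needed to build primary cilia and starts 0.0873 Mb from Epha2. It was near the detection threshold, with 24, 22 and 20 counts in wild type and 19, 11 and 26 under the EphA2 null label, where libraries were deeper. Scaled for depth these are 1.16, 1.28 and 1.35 CPM against 0.872, 0.541 and 0.971 CPM, so that the groups do not overlap, but the log2 fold change of -0.65 ± 0.32 (SE) did not pass (adjusted p = 0.9996, edgeR).

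The remaining close neighbours gave mixed values. Fbxo42, an F-box gene whose product selects substrates for a ubiquitin ligase, starts 0.153 Mb before Epha2. It was at 35.8, 27.6 and 52.5 CPM in wild type and, under the EphA2 null label, at 21.6, 43.5 and 52.1 CPM. The genotypes overlap across this whole span, and the log2 fold change of 0.02 ± 0.36 (SE) with genotype alone becomes -0.33 ± 0.15 (SE) with the title number term. Szrd1, 0.188 Mb before Epha2, had log2 fold changes of -0.50 in the lower title range and -0.0016 in the higher. After Epha2, Fam131c (0.0670 Mb away) had 0.34 ± 0.25 (SE) with the term, the transcriptional repressor gene Spen (0.167 Mb) -0.15 ± 0.13, and Plekhm2 (0.324 Mb), whose product links lysosomes to kinesin, -0.12 ± 0.15. Crocc, which encodes the ciliary rootlet protein rootletin, starts 0.285 Mb before Epha2 and had -0.04 ± 0.15, and the lysosomal transporter gene Atp13a2 0.05 ± 0.16.

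Among the flanking genes within 0.5 Mb, only Sdhb lay above wild type in both title ranges. It encodes the iron-sulphur subunit of succinate dehydrogenase, complex II of the respiratory chain, and starts 0.340 Mb before Epha2 (chromosome 4, 140961203 to 140979193, plus strand). The 3 wild type libraries had 92.6, 98.7 and 76.2 CPM, and those with the EphA2 null label 132, 107 and 92.3 CPM. Only library 3 of that group falls inside the wild type span, and within its title range it is above wild type 3. The log2 fold change was 0.30 ± 0.18 (SE) with genotype alone and 0.43 ± 0.09 (SE) with the term (adjusted p = 0.851 in edgeR and 0.0840 in DESeq2). The lower title range gave 0.46 and the higher 0.38, with values of 0.38 to 0.47 with each library left out (adjusted p from 0.0825 to 1 over the alternatives).

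Camk2n1, which encodes an inhibitor of the calcium/calmodulin-dependent kinase CaMKII, was at 3.47, 6.23 and 5.81 CPM in wild type and, under the EphA2 null label, at 8.71, 5.95 and 9.11 CPM. The second library labelled EphA2 null lies within the wild type span. With the term the log2 fold change was 0.63 ± 0.27 (SE; adjusted p = 0.9999 in edgeR, 0.325 to 1 over the alternatives), and leaving out single libraries moved it from 0.40 without the library labelled EphA2 null 1 to 0.85 without wild type 3. Ddost, a subunit gene of the enzyme that attaches N-glycans to proteins, had the other levels without overlap, 127, 121 and 119 CPM in wild type against 131, 136 and 134 CPM. The difference is small, 0.13 ± 0.12 (SE) on the log2 scale, and did not pass (adjusted p = 0.9996, edgeR). Arhgef10l, another exchange factor gene, had 0.44 ± 0.24 (SE) with genotype alone and 0.23 ± 0.14 with the term, and Tmco4 had 0.32 ± 0.19 and 0.20 ± 0.11.

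**Figure D1:**
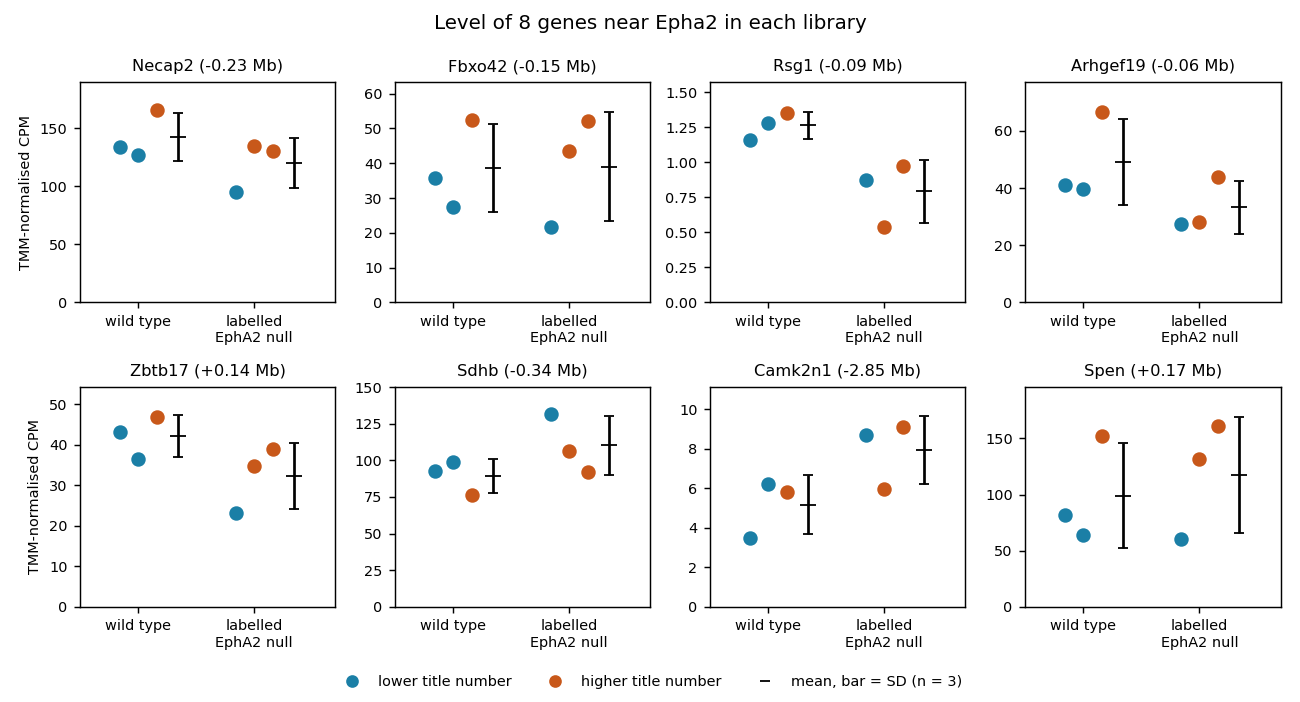
Level of 8 genes in each library in TMM-normalised CPM, by labelled genotype; each point is a library, its colour gives the title number range, and the black mark and bar are the mean and SD of 3 libraries. In Necap2, Fbxo42, Rsg1, Arhgef19 and Zbtb17 the points labelled EphA2 null lie below the wild type points of the same colour. In Sdhb and Camk2n1 they lie above them, and Spen separates by colour. In the higher range the margin is small for Fbxo42 (52.1 against 52.5 CPM) and Camk2n1 (5.95 against 5.81 CPM).

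Genes in which the labelled null libraries lay on the same side of wild type within both title ranges were counted along the chromosome. In 6 of the 56 genes, or 10.7%, the libraries labelled EphA2 null were below wild type in both ranges, against 9.24% of all genes tested, and in 7 genes, or 12.5%, they were above, against 11.5%. The numbers are thus close to those of the whole table, but among the 56 the positions differ by direction. Of the 6 lower genes 5 lie within 0.5 Mb of Epha2 (Necap2, Fbxo42, Rsg1, Arhgef19 and Zbtb17), among 15 flanking genes at that distance, and the other, Tmem51, lies at 0.730 Mb. Of the 7 higher genes 6 lie beyond 2 Mb, among 26 genes there, and the other is Sdhb. Some genes enter these counts by small margins in the higher title range. Fbxo42 had 52.1 against 52.5 CPM and Tmem51 64.8 against 65.7 CPM. Among the higher genes, Camk2n1 had 5.95 against 5.81 CPM. Rsg1 rests on 11 to 26 counts per library. The distance bands were chosen after these values were seen, so the split is a description with no test.

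With the title number term, the 15 genes within 0.5 Mb had a median log2 genotype difference of -0.12, with 12 of them below 0. The 15 genes between 0.5 and 2 Mb had a median of -0.018 with 9 below 0, and the 26 beyond 2 Mb had 0.083 with 10 below 0. Over all genes tested, 6388 of 13147 were below 0 with the term. With genotype alone the direction of the first 2 bands was the opposite: the medians were 0.15, 0.13 and 0.13, with 10 of 15, 12 of 15 and 22 of 26 genes above 0. With the term, the median size of the difference, regardless of sign, was 0.24, 0.10 and 0.12 in the 3 bands, and 0.099 over all genes tested. Counted by unadjusted p under 0.05 (edgeR, with the term), the nearest band held 4 of 15 genes, all named above. The middle band held 0 of 15 and the far band 1 of 26, Camk2n1, against 3.78% of all genes tested. Because the band limits were set with these values known, none of the band figures tests whether differences concentrate near Epha2. These bands leave out the Padi genes, which start within 0.6 Mb of Epha2. Of these, Padi1, Padi2 and Padi3 lay above wild type in both title ranges, with 3.83, 4.28 and 3.41 with the term. Padi2 and Padi3 were at low levels, and edgeR called only Padi1. Padi4 had -0.05, and Padi6 was too low to be tested. The non-coding gene Gm13056, 0.0228 Mb from Epha2, is also left out and had 0.78.

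**Figure D2:**
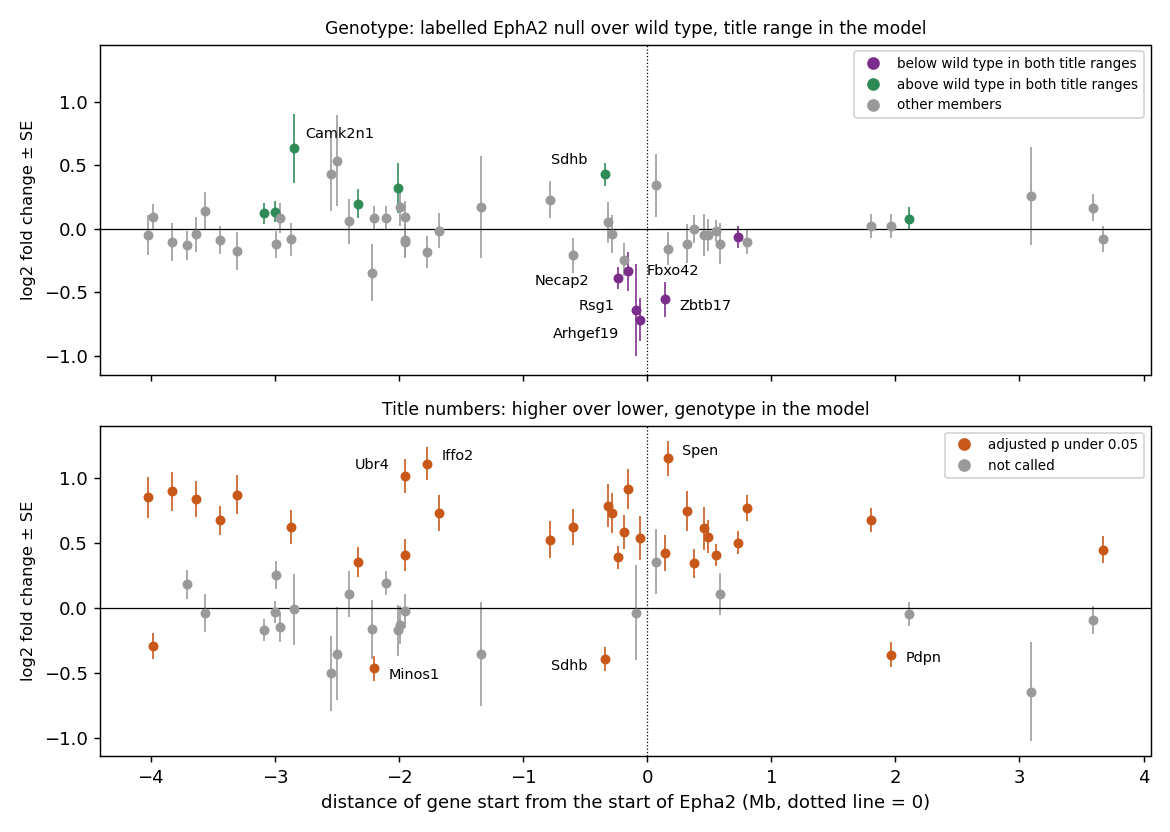
Log2 fold change ± SE (edgeR) of each of the 56 genes against the distance of its start from the start of Epha2, for genotype with the title number range in the model (top) and for higher over lower title numbers with genotype in the model (bottom). The 4 lowest genotype values, from Arhgef19, Rsg1, Zbtb17 and Necap2, lie within 0.5 Mb of the dotted line, none with an adjusted p under 0.05, while genes called by title number are spread over the window.

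Grouped by role, with lists written with earlier results of these data known, none of the groups held a called gene for genotype. The medians of the cytoskeleton, ubiquitin and chromatin lists were below 0 only with the title number term. Those of the other lists were above 0 in both fits. With genotype alone the medians of all 6 lists were above 0, from 0.12 to 0.19; that of the cytoskeleton list was 0.12 with 10 of 13 above 0, and that of the ubiquitin and protease list 0.13 with 7 of 8 above 0. The 13 genes of the cytoskeleton and small GTPase list had a median of -0.064 with the title number term, with 10 below 0; it also holds Szrd1 and Tmem51, which are not established cytoskeletal genes. Among them Cdc42, a central polarity GTPase and the most abundant of the 56 at 200 CPM per kilobase of exon, had 0.10 ± 0.10 (SE), and the actin capping gene Capzb, at 93.7 CPM per kilobase, 0.09 ± 0.09. The 8 ubiquitin and protease genes had a median of -0.084 with 7 below 0, from Fbxo42 at the low end to the deubiquitinase gene Otud3 at 0.06 ± 0.18. In this list the protease genes Ece1, which processes endothelin, and Ddi2 had -0.09 ± 0.11 and -0.00048 ± 0.11.

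The 8 genes listed as mitochondrial had a median of 0.034 with 4 below 0. That list holds Sdhb and the mitophagy kinase gene Pink1 (-0.12 ± 0.11, SE), but also Mrto4, a ribosome assembly factor, and Tmco4, which is not an established mitochondrial gene. The 8 genes of the endoplasmic reticulum, lysosome and vesicle list had a median of 0.0024 with 4 below 0, from Necap2 to the lysosomal amino acid transporter gene Pqlc2 at 0.32 ± 0.19. The 6 genes of the chromatin, transcription and RNA list had a median of -0.067, from Zbtb17 to Klhdc7a. That list also holds the translation initiation factor gene Eif4g3, and Klhdc7a is not an established gene of these roles. In it were the linker histone-like gene Hp1bp3 at 0.12 ± 0.08 and the zinc finger gene Prdm2 at 0.02 ± 0.09. The mixed list named for secreted, matrix, surface and signalling genes holds 10 genes, among them the enzyme genes Cda and Dhrs3. Its median was 0.11 with 3 below 0. In it were Wnt4, a secreted signalling protein gene, at -0.05 ± 0.16, and Pdpn, the podoplanin gene, at 0.02 ± 0.09. For comparison, the median over all 13147 genes was 0.00475. Rsg1, Fam131c, Pramef8 and Pramef12 stand in no list, and Mul1 stands in more than 1.

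The title numbers separated most of the flanking genes. Between higher and lower title numbers, with genotype in the model, 30 of the 56 genes were higher and 4 lower at an adjusted p under 0.05 in edgeR, 34 in all or 60.7%. Of all genes tested 22.9% were called higher and 21.6% lower, 44.6% in all. The median log2 difference was 0.37 for the 56 and -0.031 for all genes tested. DESeq2 and limma voom also called 30 and 4. With samples that share a number summed, which leaves 4 samples, 29 were higher and 3 lower, against 38.9% of all genes called in either direction. With EphA2 null 1 left out, so that the lower range holds 2 wild type libraries, 6 were called higher and 0 lower, against 6.28% of all genes.

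The 3 largest rises were in Spen, Iffo2 and Ubr4. Spen, a large nuclear repressor, was at 81.7, 63.6 and 60.2 CPM in the lower title numbers (wild type 1 and 2, then EphA2 null 1). It was at 152, 132 and 161 CPM in the higher ones (wild type 3, then EphA2 null 2 and 3). The ranges do not overlap, and the log2 fold change was 1.15 ± 0.13 (SE; adjusted p = 0.00200, edgeR). Iffo2, an intermediate filament family gene, went from 70.1 ± 11.9 to 145 ± 7.67 CPM (SD, n = 3 each; log2 fold change 1.11 ± 0.13, SE), and over 10% of its exon length is shared with the overlapping gene Gm21969. Ubr4, which encodes a very large ubiquitin ligase of the N-degron pathway, went from 114 ± 16.7 to 228 ± 18.2 CPM (1.01 ± 0.13). Epha2 itself differed in the same direction, by 1.05 ± 0.11.

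The largest falls among called genes were in Minos1, Sdhb and Pdpn. Minos1 encodes a small subunit of the complex that shapes mitochondrial cristae, and it was at 63.7, 65.1 and 68.3 CPM in the lower and at 47.7, 53.7 and 46.6 CPM in the higher title numbers, without overlap. Its log2 fold change was -0.46 ± 0.09 (SE; adjusted p = 0.00635, edgeR). For Sdhb it was -0.39 ± 0.09, and for Pdpn -0.36 ± 0.09. The fourth called gene was Cdc42 with -0.29 ± 0.10. The shares over all genes tested, 22.9% higher and 21.6% lower, and over the 56, 53.6% and 7.14%, are the background for the role lists. In these, 10 of 13 cytoskeleton and GTPase genes were called higher and 1 lower, and 6 of 8 ubiquitin and protease genes were higher. The calls were 6 higher of 8 endoplasmic reticulum, lysosome and vesicle genes, 4 of the 6 in the chromatin, transcription and RNA list (Eif4g3 among them), 3 of the 8 in the mitochondrial list (Tmco4 among them) with 2 lower, and 2 of 10 secreted and surface genes with 1 lower. Among single genes, Crocc (0.73 ± 0.15), Atp13a2 (0.79 ± 0.16) and Plekhm2 (0.74 ± 0.15) were called higher, while Pink1 (0.25 ± 0.11), Pqlc2 (-0.17 ± 0.19) and Rsg1 (-0.04 ± 0.36) were not called; these were picked after their values were seen.

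The log2 difference of higher over lower title numbers was more positive in genes with longer transcripts. Across the 56, Spearman's rank correlation between summed exon length and the log2 difference was 0.603, and it was 0.205 across all 13144 genes with a length; this is a description across genes that share the same 6 libraries. Of the 19 shortest genes, up to 2966 bases of exon, 2 were called higher and 4 lower, with a median of -0.13. Of the 18 in the middle 13 were called higher and 0 lower (median 0.53), and of the 19 longest, from 5934 bases, 15 were higher and 0 lower (median 0.73). Among all protein coding genes at 1 CPM or more within the same 3 length spans, 12.4%, 26.9% and 33.7% were called higher and 29.9%, 21.6% and 19.1% lower. For GC content it was 0.305 for the 56 and 0.475 over all genes.

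Among the marker sums of other cell types, those of stromal cells and leukocytes separated by title number as well, and the others overlapped. The summed level of 10 markers of stromal keratocytes and fibroblasts was 257 to 268 CPM in the lower and 72.3 to 119 CPM in the higher title numbers. Only 2 of the 10 reached a mean of 1 CPM, and Kera and Lum were at 0 in every library. Which cells this sum comes from was not tested. Corneal epithelium markers summed to 66300 to 73400 CPM in the lower and 76700 to 82900 CPM in the higher range, and 16 leukocyte markers, 6 of them above 1 CPM, to 337 to 379 and 295 to 335 CPM. Conjunctival markers overlapped between the ranges, at 4890 to 6280 and 3040 to 5380 CPM, as did those of nerve, at 130 to 210 and 184 to 293 CPM. Vessel and muscle markers summed to under 5 CPM in every library. In bulk tissue, fewer cells of a type and less RNA per cell cannot be told apart. The part of transcript length and of these markers in the title number differences was not tested. Between the genotypes the sums overlapped, with stromal markers at 119 to 268 CPM in wild type and at 72.3 to 264 CPM under the EphA2 null label.

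**Figure D3:**
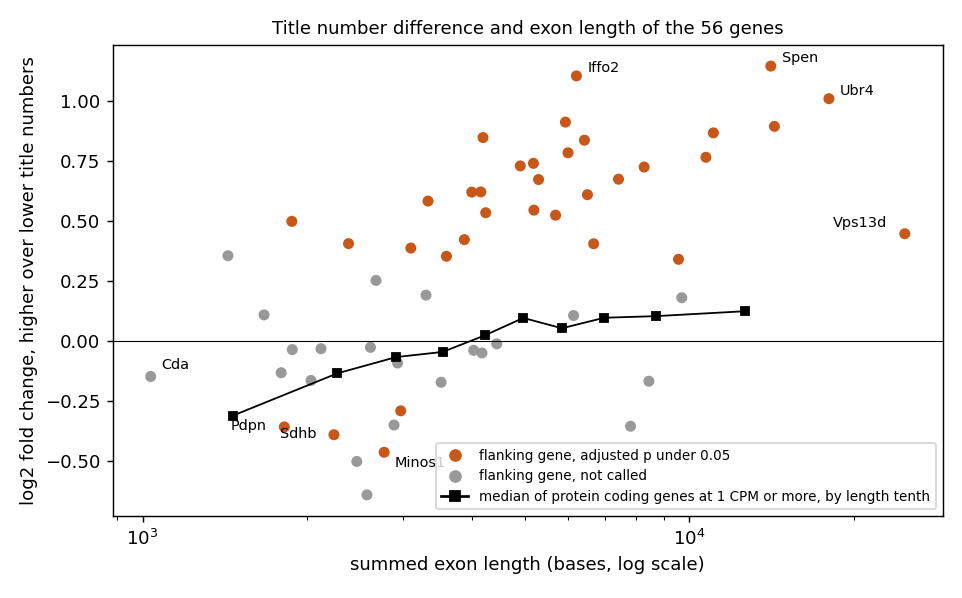
Log2 fold change of the 56 genes, higher over lower title numbers (edgeR, genotype in the model), against summed exon length on a log scale; black squares join the medians of all protein coding genes that reach 1 CPM, in 10 length classes. Called falls lie at or under 2966 bases, and the 19 longest flanking genes, from 5934 bases, have a median of 0.73. Over the same length span all protein coding genes that reach 1 CPM have a median of 0.10.

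A term for the interaction of genotype and title range was also fitted, which leaves 2 residual degrees of freedom. EphA2 null 1 and wild type 3 are each the only library of their genotype in their range. The spread therefore comes only from the pairs that share a title number, wild type 1 and 2 and EphA2 null 2 and 3. These p-values cannot show whether a genotype difference depends on the range. Of the 56 genes 6 had an unadjusted p under 0.05, or 10.7%, against 4.52% of all 13601 genes tested, and 0 passed after adjustment in edgeR, as in the whole table. The 6 were Wnt4, Alpl, Iffo2, Klhdc7a, Rcc2 and Szrd1. Alpl, which encodes tissue-nonspecific alkaline phosphatase, was at 194 and 194 CPM in wild type 1 and 2 and 169 CPM under the label EphA2 null 1. In the higher title numbers it was at 152 CPM in wild type 3 and at 217 and 205 CPM under the labels EphA2 null 2 and 3, so the order of the genotypes turns over between the ranges. Wnt4 turned over in the same way, with a log2 genotype difference of -0.39 in the lower title range and 0.28 in the higher. None of Arhgef19, Zbtb17, Necap2 and Sdhb was among the 6, which does not show that their differences are alike in both ranges.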

How the data were processed

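RNA-seq counts per gene were taken from 1 table for 6 samples of mouse corneal epithelium, 3 wild type and 3 labelled EphA2 null. Values were deposited by the authors as whole, unnormalised counts for each Ensembl gene. The aligner, counting program, strand setting, genome build and annotation: not given in the sources used here. Columns were matched to samples by title, and 0 columns of other samples were present. Names, positions and exon lengths were looked up in GENCODE M21 (GRCm38) for 24991 of the 25006 identifiers; the release was not checked against the annotation used for counting. Without a stated strand setting, overlapping genes cannot be told apart, and 5 of the 56 genes share over 10% of their exon length with another gene (Emc1, Iffo2, Aldh4a1, Ddi2 and Tmem51). The annotated 3' ends of Zbtb17 and Spen also overlap. Genes with near copies, such as Pramef8 and Pramef12, are uncertain. Smallest chi-square per degree of freedom between 2 libraries was 10.6, so no library was counted as a duplicate.

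The members, role lists, marker lists, tests and named genes were chosen with earlier results of these data known. Genes were filtered with filterByExpr and compared with edgeR 4.0.16 (TMM factors, glmQLFit, glmQLFTest; R 4.3.3) over the whole table, and all 56 genes passed the filter. Called means a Benjamini-Hochberg adjusted p under 0.05 over all genes tested. The SE is the log2 fold change divided by the square root of F. Values within a title range are log2 ratios of mean CPM. Alternatives were DESeq2 1.42.0, limma voom (limma 3.58.1), RLE factors, no filter, the title number range as a term, summed samples, each sample left out, a minimum of 5 CPM and a window of 139 to 144 Mb. The title number range came into the design because earlier work on these data had found that the libraries separate by it. Simulated counts were used to test the edgeR scripts. Named are the 8 genes with the smallest genotype p, the 6 with the smallest p with the title term, the 3 largest rises and falls by title number, the 4 nearest genes on each side, and the 2 most abundant per kilobase in each list. Epha2, the Padi genes and the genes at the borders were also named. Atp13a2, Crocc, Mrto4, Eif4g3, Otud3, Pqlc2, Klhdc7a, Mul1, Tmem51, Cda, Dhrs3, Ddost for its lack of overlap, and the interaction genes were named after their values were seen. RefSeq promoters (GRCm38.p6) were matched by symbol or synonym.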

Additional observations from a re-analysis of the deposited data

How the results depend on the processing

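No flanking gene was called for genotype under any alternative fitted with genotype alone (other factors, no filter, DESeq2, limma voom, summed samples, 5 CPM minimum, narrower window, or any library left out). With the title number term, 0 were called except in edgeR with no filter, which called 2. At an unadjusted p under 0.05 the count was 0 with genotype alone, against 1.18% of all genes, and 1 with no filter. It was 5 with the title number term, against 3.78% of all genes in edgeR and 2.94% in DESeq2. With genotype alone and a library left out it was 0 to 6, the highest without the library labelled EphA2 null 1. Shares of all genes for those fits and for no filter are not given, so these counts cannot be called high or low. With the term the count of 5 ran from 4 to 12 with a library left out. It was 4 without wild type 1, against 3.22% of all genes, and 12 without wild type 3, against 5.2%. Genes without overlap numbered 2 (3.57%, against 3.73% of all genes), 3 with no filter (5.36% against 4.23%), 1 at the 5 CPM minimum (2.0% against 2.85%), 1 in the narrower window (2.86% against 3.73%) and 13 within title ranges (23.2% against 20.7%). With a library left out they numbered 5 to 17, the highest without the library labelled EphA2 null 1 (30.4% against 26.7%). The median of 0.13 ran from 0.0485 to 0.243 with a library left out; it was -0.010 with samples that share a number summed and -0.030 with the title number term. Summed samples with the term, added after seeing the data, called 0 genes for genotype, with 6 at an unadjusted p under 0.05 (4.07% of all genes). Title number calls ran from 6 without EphA2 null 1, against 6.28% of all genes, to 35 without EphA2 null 2, against 44.7%. The sign of the genotype value changed with the title number term in 23 of the 56, from above to below 0 in 21 of them. Among the genes named by rule these were Fbxo42 (-0.33), Ubr4 (-0.091), Iffo2 (-0.18), Spen (-0.15), Minos1 (0.083), Pdpn (0.021), Plekhm2 (-0.12), Wnt4 (-0.047), Ece1 (-0.086) and Ddi2 (-0.00048). With a library left out and genotype alone, Fbxo42 ran from -0.25 to 0.31, Spen from -0.046 to 0.68, Minos1 from -0.23 to 0.050, Szrd1 from -0.17 to 0.23, Plekhm2 from -0.065 to 0.44, Cdc42 from -0.10 to 0.092, Pink1 from -0.15 to 0.081 and Ddi2 from -0.0033 to 0.23. The causes were not tested. No paired analysis was possible because the labels give no replicate number shared between the genotypes; the title number range, which holds both, was used as a term instead.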

Other observations

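Of the 70 protein coding rows of the window below 1 CPM, 40 had 0 counts in all libraries and 3 passed the filter on low counts. Tnfrsf1b, a tumour necrosis factor receptor gene, was at 1.06, 0.641 and 1.56 CPM in the lower and 0.203, 0.246 and 0.112 CPM in the higher title numbers, without overlap (log2 fold change -2.81 ± 0.51, SE; adjusted p = 0.00451, edgeR). Tas1r2, a taste receptor gene, was at 0.193, 0.117 and 0.229 CPM in the lower and 1.62, 2.61 and 0.672 CPM in the higher title numbers (3.03 ± 0.67; adjusted p = 0.00857). Kif17, a ciliary kinesin gene, was between 0.241 and 0.675 CPM in 5 libraries and at 2.12 CPM in the library labelled EphA2 null 2. Its overlapping neighbour Sh2d5 had 62 counts in that library and 5 to 13 in each other library.

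The window also held 26 rows that are not protein coding, 4 of them at a mean of at least 1 CPM. The nearest to Epha2 was Gm13056 (chromosome 4, 141278439 to 141279794), between Arhgef19 and Epha2. It had 2.85, 1.98 and 1.15 CPM in wild type and, under the EphA2 null label, 3.72, 2.36 and 2.24 CPM. Within each title range the libraries labelled EphA2 null lay above wild type, but the pooled groups overlap, and the gene did not pass for genotype with the title number term (adjusted p = 0.9999, edgeR). The antisense genes Tmem51os1 and 4930455G09Rik did not overlap between the genotypes. Tmem51os1 had 2.94, 2.97 and 3.04 CPM in wild type against 2.20, 2.36 and 2.35 CPM, and 4930455G09Rik 0.965, 1.51 and 1.22 CPM against 0.826, 0.935 and 0.784 CPM. Neither passed in edgeR (-0.37 ± 0.22 and -0.53 ± 0.31, SE, adjusted p = 0.9996 for both). Reads of Tmem51os1 cannot be told here from those of Tmem51, whose exons it overlaps. The gene 4930455G09Rik lies between Fhad1 and Tmem51 and overlaps neither. Gm13003 overlapped between the genotypes.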
